A study of Homo sapiens with 4 samples.

Results

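The genes described here carry out or control transepithelial chloride secretion, the classic function of T84 layers, and comprise the chloride channel CFTR, the cotransporter SLC12A2, the potassium channel genes KCNN4, KCNQ1 and KCNE3, the sodium pump subunit ATP1B1, the guanylate cyclase GUCY2C, the anion exchanger SLC26A6 and the scaffold PDZK1. They were chosen by gene symbol, and every probe set annotated to 1 of these symbols alone was taken, which gave 19 probe sets for the 9 genes, of 41097 probe sets with 1 symbol for 19775 genes. One further probe set, listed for SLC26A6 and a miRNA gene together, was left out. A probe set was called expressed when its mean signal lay at or above the median probe set or its signal reached the 75th percentile of any array, and 14 probe sets of 7 of the genes passed. The only probe sets of SLC26A6 and PDZK1 did not.

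T84, a human colorectal carcinoma line, was seeded on permeable filters and transfected with 15 pmol of oligonucleotides, and the total RNA of each of 4 cultures was read on its own Affymetrix U133 Plus 2.0 array. On the 4-miRNA array were cells treated for 5 days with miR-338-3p, miR-451, miR-33a and miR-210, and on the 2-miRNA array cells treated for 5 days with only the pair miR-338-3p and miR-451. Cells of the day 7 control and of the day 5 control, collected after 7 and 5 days, received a short RNA with little likeness to human miRNAs. Every culture was thus transfected, and no untransfected cells were analysed here. With 1 array per group there was no spread between cultures to test against, so differences are descriptions and no p-value is given. The labels do not say whether the 15 pmol was the total of a mix.

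Chloride secretion works as a circuit across the cell. SLC12A2 (NKCC1) brings chloride in across the basolateral membrane on the sodium gradient that the sodium pump, with its β subunit ATP1B1, maintains, and the potassium that enters returns through the calcium-activated channel KCNN4 and the cAMP-activated channel that KCNQ1 forms with its subunit KCNE3. Chloride leaves through apical CFTR when cAMP- or cGMP-dependent kinases open it, GUCY2C makes the cGMP when guanylin or bacterial heat-stable enterotoxin binds, SLC26A6 exchanges chloride for bicarbonate or oxalate at the apical membrane, and PDZK1 holds CFTR and exchangers in complexes there.

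The transfected miRNAs define the treated groups, and 3 of the 4 mature sequences were matched in the RefSeq miRNA table of GRCh38.p14. They are shown with the seed, bases 2 to 8, in capitals. For miR-33a and miR-210 the arm is the one that the older plain name stood for.
miR-338-3p: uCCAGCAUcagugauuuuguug
miR-33a-5p: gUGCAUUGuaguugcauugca
miR-210-3p: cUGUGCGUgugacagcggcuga
miR-338-3p lies at chr17:81125887-81125908 on the minus strand, miR-33a-5p at chr22:41900949-41900969 on the plus strand and miR-210-3p at chr11:568112-568133 on the minus strand. No seed was shared between these 3.

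The signals were multiplied per array so that the mean without the lowest and highest 2% of probe sets was 500. The factors were 3.33 and 3.39 for the 4-miRNA and 2-miRNA arrays, and 6.73 and 6.53 for the day 7 and day 5 controls, so the brighter arrays as deposited were those with miRNAs, and brightness cannot be told apart from miRNA treatment. The array medians after scaling were 81.6, 87.3, 99.0 and 99.3 in the same order. The highest deposited signals were alike, at 17832, 18739, 17966 and 18749 in that order. After scaling, the top of the range was therefore lower on the miRNA arrays. Whether this lowers the brightest genes there was not tested. Colon epithelium markers were present: all 12 (EPCAM, CDH1, VIL1, CDX1, CDX2 and others) lay above the median of every array, with summed scaled signals between 219675 and 305034. Of 7 fibroblast, 5 leukocyte and 5 endothelium markers, 3, 3 and 1 were expressed, and their summed signals were at most 804, 526 and 405. COL1A1, CD3E and PECAM1 were above the median of every array, while COL3A1, LUM, PDGFRB, PTPRC, CD14, VWF, CDH5, KDR and TEK were under it on every array. The day 7 control had the highest sum of the epithelial markers. In bulk RNA, fewer cells of a kind and less RNA per cell cannot be told apart.

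Differences are between log2 values of the scaled signal plus 32, an offset that understates differences of dim genes, and the brightest expressed probe set stands for its gene. Where a gene has several expressed probe sets, they are told apart here by their brightness. As a measure of probe set error, the log2 differences of the brightest pair of probe sets were compared in 2625 genes whose pair was bright (mean log2 of at least 9). The SD specific to a probe set was 0.58 for each miRNA array against the day 5 control, 0.27 for the day 7 control against the day 5 control, and 0.18 for the 4-miRNA array against the 2-miRNA array. It leaves out variation between cultures, which was not measured.

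ATP1B1, the sodium pump β subunit, had the largest gene-level difference of the 7 expressed members, and it was lowest on the day 5 control. Its brightest probe set had a scaled signal of 38488 with 4 miRNAs, 36307 with 2 miRNAs and 34890 in the day 7 control, against 20200.5 in the day 5 control. Its second probe set had 16405 with 4 miRNAs, 16646 with 2 miRNAs and 10646 in the day 7 control, against 6728 in the day 5 control. The day 5 control was thus the lowest array for each probe set, and the miRNA arrays were the highest pair. On the brightest probe set the log2 differences from the day 5 control were 0.93 with 4 miRNAs, 0.84 with 2 miRNAs and 0.79 on day 7, above those of 91.0%, 89.4% and 94.3% of the 12264 expressed genes. On the second they were 1.28, 1.30 and 0.66. At the scaling used, the miRNA arrays passed 2-fold over the day 5 control on the second probe set alone. The brightest passed it too under quantile normalization, at 1.37 with 4 miRNAs and 1.21 with 2, and with running-median centring, at 1.29 and 1.22. Above the day 7 control the miRNA arrays stood by 0.62 and 0.64 on the second and by 0.14 and 0.06 on the brightest, which became 0.73 and 0.57 under quantile normalization and 0.55 and 0.48 with centring. At the scaling used, all 6 of the differences from the day 5 control were larger than the probe set SD.

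SLC12A2, which loads the cell with chloride, gave opposite answers on its pair of bright probe sets. The brightest, listed under a RefSeq transcript and called the transcript probe set here, had a scaled signal of 10648 with 4 miRNAs and 14043.5 with 2 miRNAs, against 14352.5 in the day 7 control and 18121 in the day 5 control. The other, listed under a cDNA clone and called the clone probe set, had 13031 with 4 miRNAs and 14234 with 2 miRNAs, against 6348 and 4967 in the day 7 and day 5 controls. The miRNA arrays were both below the controls on the first and both above them on the second. Against the day 5 control the log2 differences of the transcript probe set were −0.77 with 4 miRNAs, −0.37 with 2 miRNAs and −0.34 on day 7, and those of the clone probe set were 1.39, 1.51 and 0.35. The gap between the probe sets was 2.15 with 4 miRNAs, wider than in 98.2% of the 2625 genes with a bright pair, 1.88 with 2 miRNAs, wider than in 96.5%, and 0.69 on day 7, wider than in 92.7%. Over those genes the median absolute gap was 0.44, 0.43 and 0.22. Opposite signs as such were common, in 36.4% of the genes with 4 miRNAs. The data therefore give no direction for SLC12A2 between miRNA arrays and controls, nor between the controls. Between the miRNA arrays its probe sets had the same sign, −0.40 and −0.13 for 4 miRNAs minus 2 miRNAs.

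**Figure D1:**
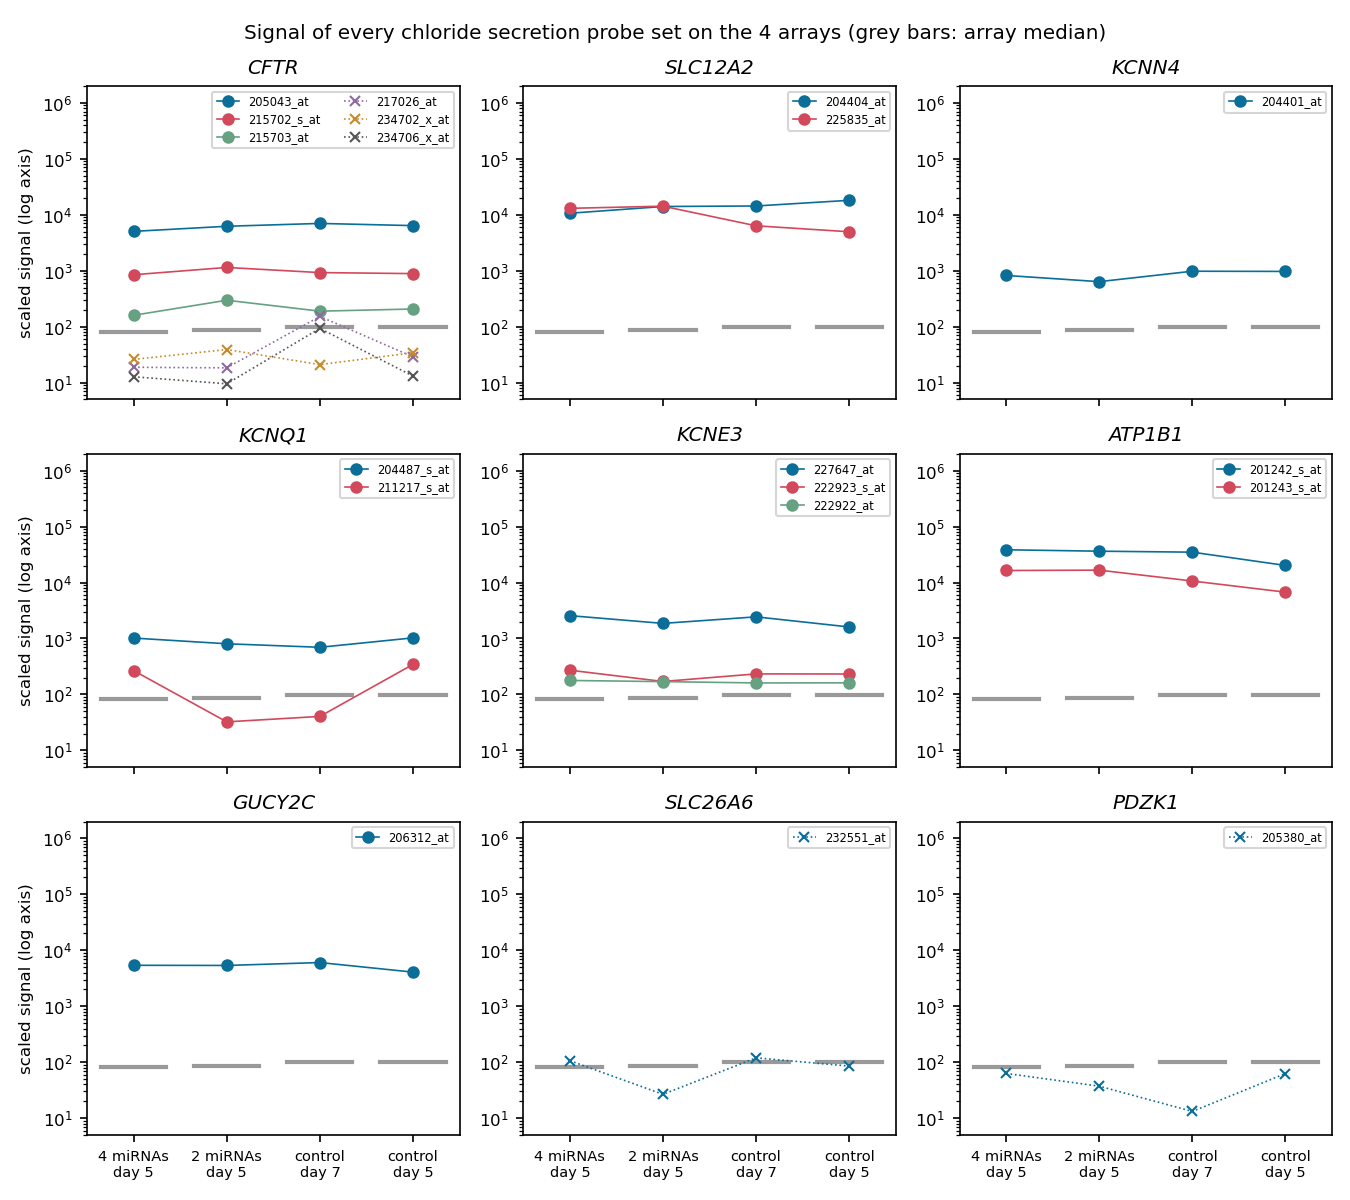
Scaled signal (log axis) of all 19 probe sets of the 9 genes on each of the 4 arrays, 1 array per group; circles are expressed probe sets, crosses those under the filter, and grey bars the array medians, with the probe sets of a gene named from brightest to dimmest. Thin lines join the values of a probe set and are no time course. The SLC12A2 probe sets run in opposite directions between miRNA arrays and controls, and both ATP1B1 probe sets are lowest on the day 5 control (20200.5 and 6728).

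CFTR, the apical chloride channel, differed little from the day 5 control on any array, and was lower with 4 miRNAs than with 2. Its brightest probe set had a scaled signal of 5049 with 4 miRNAs and 6226 with 2 miRNAs, against 7002 in the day 7 control and 6396 in the day 5 control. The second had 847 and 1144 with 4 and 2 miRNAs, against 926 and 888 in the day 7 and day 5 controls. The third had 159.7 and 297 with 4 and 2 miRNAs, against 189 and 207 in the day 7 and day 5 controls. The 4-miRNA array was the lowest on all 3. With 4 miRNAs the log2 differences from the day 5 control were −0.34, −0.07 and −0.32, the first 2 smaller than the probe set SD. With 2 miRNAs they were −0.04, 0.35 and 0.46, and on day 7 0.13, 0.06 and −0.11, the first 2 of each again within it. The 4-miRNA array lay under the 2-miRNA array on all 3 expressed CFTR probe sets, at log2 differences of −0.30, −0.42 and −0.78. The first 2 were past the probe set SD of 0.18 for that pair of arrays. The third probe set, at a mean log2 of 7.91, was dimmer than the probe sets that gave the SD, so it is not judged by it in any comparison. The difference on the brightest was lower than those of all but 14.3% of genes. The other 3 CFTR probe sets were not expressed by the filter: 1 passed the array median on the day 7 control alone, at 152, and the others stayed under it on every array.

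KCNN4, the calcium-activated basolateral potassium channel, has 1 probe set, with a scaled signal of 823 with 4 miRNAs and 638 with 2 miRNAs, against 979.7 in the day 7 control and 971 in the day 5 control. Both miRNA arrays were below the controls, which had almost the same value (log2 difference 0.01). The differences from the day 5 control were −0.23 with 4 miRNAs, well within the probe set SD, and −0.58 with 2 miRNAs, the size of that SD. From the day 7 control they were −0.24 and −0.60.

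KCNQ1, the pore subunit of the cAMP-activated potassium channel, had on its brighter probe set a scaled signal of 1018 with 4 miRNAs, 805 with 2 miRNAs and 696 in the day 7 control, against 1026 in the day 5 control. The day 7 control was the lowest, at a log2 difference of −0.54 from day 5, lower than all but 9.87% of genes. The miRNA arrays stood at −0.01 and −0.34 from the day 5 control, each within the probe set SD, and the 4-miRNA value changed sign to 0.08 with running-median centring. Its dimmer probe set had 266 with 4 miRNAs, 32.4 with 2 miRNAs and 40.5 in the day 7 control, against 344 in the day 5 control. Only the 4-miRNA array and the day 5 control were above the array median there. The dimmer probe set reached the 75th percentile of no array and passed the filter by its mean signal, which those high values raised. Its differences between high and low arrays are therefore not independent of the filter. Taking the median of the dimmer array as its limit, this probe set was at least 3.94-fold lower with 2 miRNAs than on the day 5 control, at least 3.48-fold lower on day 7 than on day 5, and at least 3.05-fold higher with 4 miRNAs than with 2. The brighter probe set also had its lower values on the 2-miRNA array and the day 7 control, and its differences were far smaller. These bounds are thus of that probe set, not of the gene.

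KCNE3, the subunit that keeps the KCNQ1 channel open in intestinal epithelium, had on its brightest probe set a scaled signal of 2559 with 4 miRNAs, 1861 with 2 miRNAs and 2436 in the day 7 control, against 1606 in the day 5 control. The 4-miRNA array and the day 7 control were high and close to each other. Log2 differences from the day 5 control were 0.66, 0.21 and 0.59 in that order, the first and the last past the probe set SD. On the second, at scaled signals of 271 with 4 miRNAs, 171 with 2 miRNAs and 233 in the day 7 control, against 232 in the day 5 control, they were 0.20, −0.38 and 0.01. On the third, at 178, 169.5 and 161 in that order, against 161 in the day 5 control, they were 0.12 and 0.06 with miRNAs and under 0.01 in size on day 7. The dimmer probe sets thus did not repeat the difference of day 7, and with 4 miRNAs they gave far smaller differences, 0.20 and 0.12. With 4 miRNAs minus 2 miRNAs all 3 were above 0, at 0.45, 0.58 and 0.06, and the brightest exceeded 92.2% of genes.

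GUCY2C, the cyclase of the cGMP route, has 1 probe set, with a scaled signal of 5396 with 4 miRNAs, 5362 with 2 miRNAs and 6040.4 in the day 7 control, against 4074 in the day 5 control. The miRNA arrays were nearly equal and lay between the controls. The log2 differences from the day 5 control were 0.40 with 4 miRNAs and 0.39 with 2 miRNAs, within the probe set SD of 0.58, and 0.56 on day 7, past the SD of 0.27 and above 89.3% of genes.

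SLC26A6 and PDZK1 were measured near or under the limit. The SLC26A6 probe set had a scaled signal of 106 with 4 miRNAs, 26.7 with 2 miRNAs and 119.6 in the day 7 control, against 85.4 in the day 5 control. It was above the array median on the 4-miRNA array and the day 7 control, and at least 1.22-fold higher with 4 miRNAs than with 2. PDZK1 had 63.1 with 4 miRNAs, 37.3 with 2 miRNAs and 13.2 in the day 7 control, against 62.6 in the day 5 control, under the median of every array, and no fold is given.

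**Figure D2:**
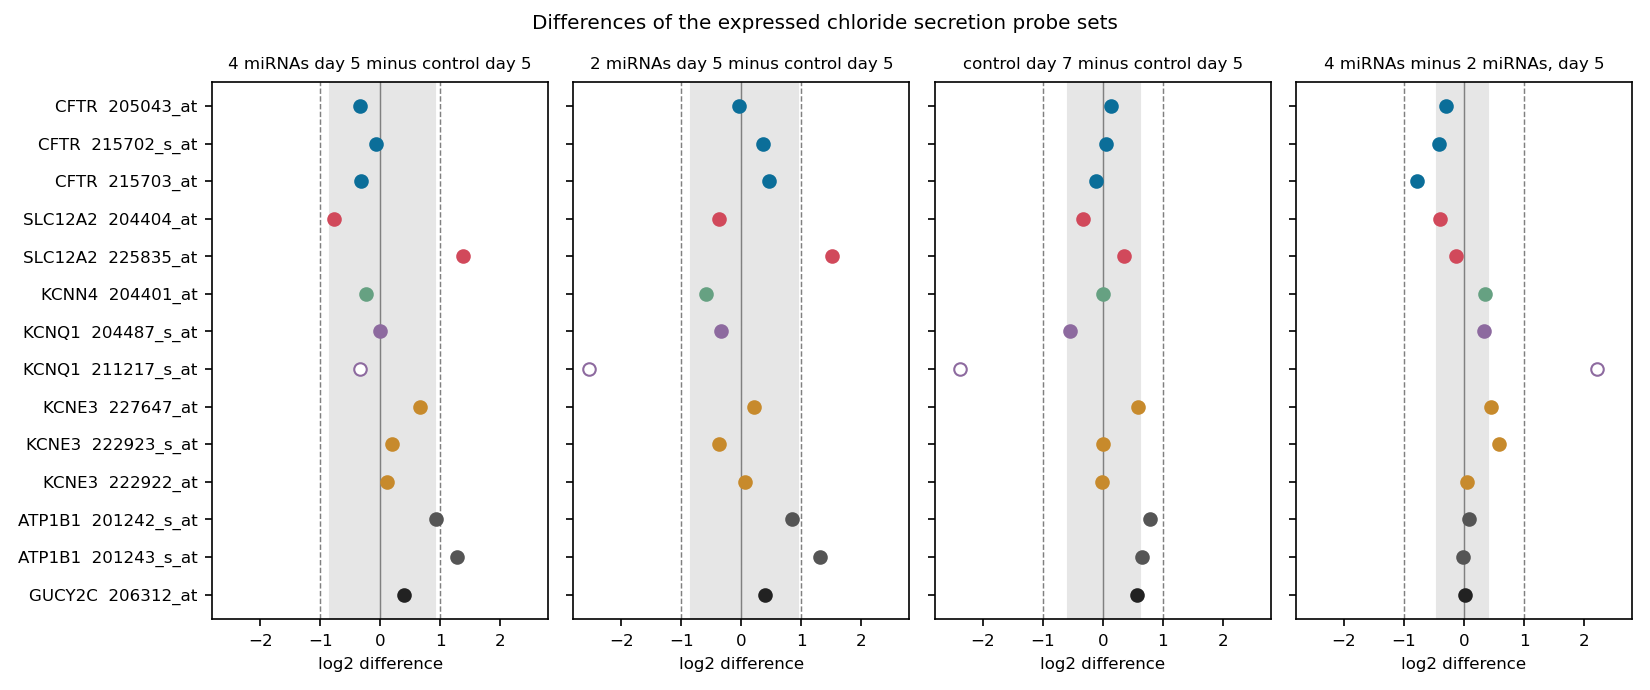
Log2 difference (scaled signal plus 32) of the 14 expressed probe sets in 4 comparisons; each point is 1 probe set, sorted within a gene from brightest to dimmest and open where it was under the median of any array, the grey band holds the central 80% of all 22609 expressed probe sets with 1 symbol, and dashed lines mark 2-fold. The second ATP1B1 probe set and the clone probe set of SLC12A2 lie past 2-fold on the right with miRNAs against the day 5 control (1.28 and 1.39 with 4 miRNAs), while the transcript probe set of SLC12A2 lies at −0.77.

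Counted by gene, none of the 7 expressed members was 2-fold apart in any of the 6 comparisons, though ATP1B1 was with miRNAs against the day 5 control under the other scalings named above. Over all expressed genes, 8.03% were at least 2-fold higher and 6.7% lower with 4 miRNAs than on the day 5 control, 8.11% and 6.37% with 2 miRNAs, 3.35% and 2.41% on day 7 against day 5, and 1.04% and 1.33% with 4 miRNAs against 2. Against the day 7 control these shares were 5.63% and 4.15% with 4 miRNAs, and 6.19% and 4.03% with 2. The members' median log2 difference was −0.01 with 4 miRNAs, −0.04 with 2 miRNAs and 0.13 on day 7 against the day 5 control, beside −0.15, −0.16 and −0.01 for all genes, and 0.084 with 4 miRNAs minus 2, beside 0.0043. Against the day 7 control it was −0.16 with 4 miRNAs and −0.17 with 2, beside −0.15 and −0.16. Differences above 0 were held by 3 of 7 members with 4 miRNAs (41% of all genes), 3 with 2 miRNAs (40.6%) and 5 on day 7 (49.3%) against the day 5 control, and by 5 with 4 miRNAs against 2 (50.8%). Against the day 7 control they were held by 3 with 4 miRNAs (39.1%) and 2 with 2 miRNAs (38.9%). These shares leave the members near the background. The sign of the miRNA medians turned with the choice of SLC12A2 probe set: with the clone probe set they were 0.40 and 0.21, and 1 member was then at least 2-fold higher on each miRNA array than on the day 5 control. Counted by probe set, 2 of 14 were at least 2-fold higher with 4 miRNAs than on the day 5 control and 0 lower, where 8.65% and 6.21% of all expressed probe sets were. With 2 miRNAs 2 were higher and 1 lower (9.24% and 5.89% of all). In each case the higher ones were the clone probe set of SLC12A2 and the second of ATP1B1. On day 7 against day 5, 0 were higher and 1 lower (3.83% and 2.92% of all), and with 4 miRNAs against 2, 1 was higher and 0 lower (1.07% and 1.49%). These are the dimmer KCNQ1 probe set, as is the 1 lower with 2 miRNAs. Against the day 7 control, 2 were higher with 4 miRNAs (6.49% higher and 4.29% lower of all) and 1 with 2 miRNAs (7.26% and 3.98%), with none lower. The clone probe set of SLC12A2 was in both, and the dimmer KCNQ1 probe set was the other with 4 miRNAs. Since that KCNQ1 probe set passed the filter by a mean that its high arrays raised, its calls here are not independent of the filter.

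Set against the controls together, ATP1B1 was higher on both miRNA arrays than on either control, as were 22.8% of all expressed genes. CFTR, SLC12A2 and KCNN4 were lower on both miRNA arrays than on either control, as were 41% of all genes. The count for SLC12A2 rests on the transcript probe set and on a difference of −0.031 between 2 miRNAs and the day 7 control, which turned to 0.025 under quantile normalization and 0.23 with running-median centring. For CFTR it rests on −0.039 between 2 miRNAs and the day 5 control, which turned to 0.054 with centring, and the other expressed probe sets did not repeat it. By probe set, 4 of 14 had both miRNA arrays above both controls (24.5% of all) and 3 had them below (36.8%). Of the 7 genes none had the lower miRNA array at least 2-fold above the higher control (3.12% of all genes), and of the 14 probe sets only the clone probe set of SLC12A2 did (3.34%).

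Between the miRNA arrays, KCNE3, KCNN4 and KCNQ1 were higher with 4 miRNAs than with 2, by 0.45, 0.35 and 0.33 on the log2 scale. SLC12A2 and CFTR were lower, at −0.40 and −0.30, and ATP1B1 and GUCY2C stood at 0.084 and 0.0091. All 6 expressed probe sets of the first 3 genes were above 0 and all 5 of SLC12A2 and CFTR below it, while 48.4% of all expressed probe sets were above 0. Of the 6, the dimmer KCNQ1 probe set passed the filter by a mean that its 4-miRNA value helped to raise. Other genes of these roles ran the other way: SLC26A6 was at least 1.22-fold higher with 4 miRNAs, 1 of 5 expressed potassium channels of the partner list was above 0 (median −0.15), and 5 of 6 expressed apical channels and exchangers were (median 0.42). Probe sets of a gene share its RNA and are not independent, the differences are small beside 2-fold and come from 1 pair of arrays, and this grouping was made after the values were seen.

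**Figure D3:**
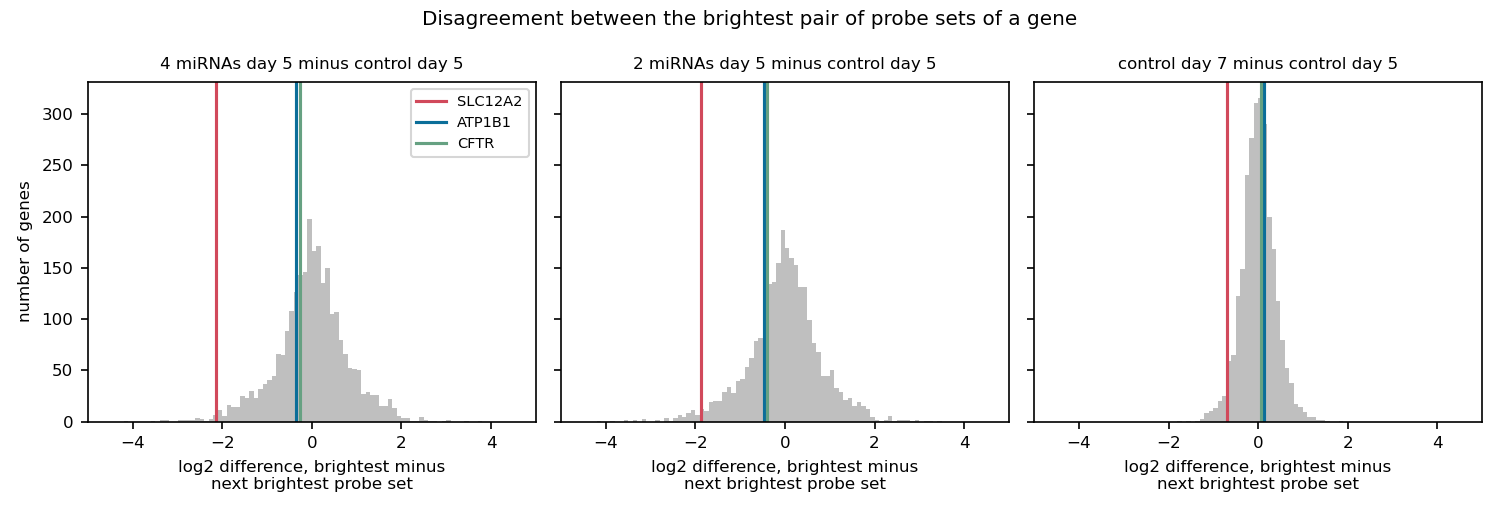
Number of genes (vertical axis) by the gap between the log2 differences of their brightest pair of probe sets, for 2625 genes, in 3 comparisons with the day 5 control; coloured lines mark SLC12A2, ATP1B1 and CFTR. SLC12A2 lies in the tail on the miRNA arrays (absolute gaps of 2.15 and 1.88), and the spread over all genes is narrower for the controls.

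The promoters of SLC12A2, ATP1B1 and KCNE3 are shown. They were taken because the brightest probe set of these genes differed most in size from the day 5 control with 4 miRNAs. These promoters were searched for cores of sites of cAMP and hypoxia regulators, and for boxes of promoters in general. Each is the 250 bases before the gene's start in RefSeq on GRCh38.p14, with matches in capitals. The motifs searched, on both strands, were TGACG (core of the cAMP response element), ACGTG or GCGTG (core of the site of the hypoxia-inducible factor), CCAAT (its own box), GGGCGG (the box rich in those letters) and TATAAA (the TATA box). No match in these windows overlaps another, and a match is a description of the letters.
SLC12A2: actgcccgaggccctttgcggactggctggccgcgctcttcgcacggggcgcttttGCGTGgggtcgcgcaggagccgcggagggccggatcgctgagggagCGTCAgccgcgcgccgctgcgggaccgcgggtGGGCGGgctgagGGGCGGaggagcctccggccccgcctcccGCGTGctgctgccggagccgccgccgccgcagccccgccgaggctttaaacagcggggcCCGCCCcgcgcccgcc
ATP1B1: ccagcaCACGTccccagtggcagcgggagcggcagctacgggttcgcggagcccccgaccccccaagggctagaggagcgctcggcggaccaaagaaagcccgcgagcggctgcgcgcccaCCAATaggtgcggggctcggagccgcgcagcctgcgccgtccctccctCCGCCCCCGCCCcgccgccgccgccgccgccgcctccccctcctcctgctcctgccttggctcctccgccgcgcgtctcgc
KCNE3: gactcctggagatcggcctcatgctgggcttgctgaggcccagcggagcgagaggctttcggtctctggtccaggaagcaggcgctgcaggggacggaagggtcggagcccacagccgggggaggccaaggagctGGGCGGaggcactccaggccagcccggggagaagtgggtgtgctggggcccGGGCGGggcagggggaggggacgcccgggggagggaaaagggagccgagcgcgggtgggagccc
They lie at chr5:128083516-128083765 on the plus strand, chr1:169106440-169106689 on the plus strand and chr11:74467550-74467799 on the minus strand. The SLC12A2 window held GCGTG at 194 and 75 bases before the start, the reverse of TGACG at 148 bases before it, and 3 matches to GGGCGG, 1 of them in reverse. The ATP1B1 window held the reverse of ACGTG, then CCAAT, and 2 matches to GGGCGG in reverse that abut. The KCNE3 window held 2 matches to GGGCGG. Of 35116 promoter windows, 32.2% held GCGTG, 18.5% ACGTG, 21.2% TGACG, 32.01% CCAAT, 42.6% GGGCGG and 10.7% TATAAA, so each match is frequent. GC content was 79.6%, 77.6% and 73.2%, where the median window had 58%. Of the other members, CFTR had CCAAT in reverse at 61 bases before the start and none of the other motifs in its window. Windows were found for 7 of the 9 genes, not for KCNQ1 and GUCY2C.

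Genes that work with the members were described from a list of 73, of which 61 were expressed. On the 4-miRNA array 6 were at least 2-fold higher and 4 lower than on the day 5 control (8.03% and 6.7% of all genes), with medians of −0.03 for the list and −0.15 for all genes. On the 2-miRNA array 8 were higher and 5 lower (8.11% and 6.37% of all), with medians of −0.13 and −0.16. On day 7 against day 5, 3 were higher and 2 lower (3.35% and 2.41% of all), with medians of 0.05 and −0.01. With 4 miRNAs against 2, 2 were higher and 1 lower (1.04% and 1.33% of all), with medians of 0.0066 and 0.0043. Against the day 7 control, 3 were higher and 3 lower with 4 miRNAs (5.63% and 4.15% of all), with medians of −0.14 and −0.15. With 2 miRNAs 3 were higher and 5 lower than on day 7 (6.19% and 4.03% of all), with medians of −0.29 and −0.16.

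Among 6 expressed apical channels and exchangers, SLC26A3, which exchanges chloride for bicarbonate in absorption, had a scaled signal of 1365 with 4 miRNAs, 794 with 2 miRNAs and 3417 in the day 7 control, against 223 in the day 5 control. SLC26A2, the sulfate transporter, was higher than on the day 5 control by 1.19 with 4 miRNAs, 1.30 with 2 miRNAs and 1.62 on day 7. CLCA1, a secreted protein of goblet cells that regulates calcium-activated chloride channels, was lower on the miRNA arrays, at 1189 and 1176, against 2998 and 3580 on the day 7 and day 5 controls. SLC26A11 was higher with 4 miRNAs than with 2 by 1.55. ANO1, a calcium-activated chloride channel named here after its values were seen, was higher with 4 miRNAs than on the day 5 control by 1.21, though its dimmer probe set gave 0.32. The day 5 control was lowest and the day 7 control highest for SLC26A3 and SLC26A2, as for GUCY2C.

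Basolateral partners included FXYD3, a regulatory subunit of the sodium pump, which had a scaled signal of 36108 with 4 miRNAs, 35738.5 with 2 miRNAs and 57024 in the day 7 control, against 24956.5 in the day 5 control. Like ATP1B1, it was lowest on the day 5 control, but highest on day 7 at the scaling used. SLC4A7, a sodium bicarbonate cotransporter, gave 1.38 for 2 miRNAs minus the day 5 control on its brightest probe set and −1.14 on the other. Of the other potassium channels, KCNK1 was higher on the miRNA arrays than on the day 5 control by 1.38 and 1.12, though its second probe set gave 0.29 and −0.27. KCNK6 was under the array median on the day 5 control alone. It was at least 1.21-fold higher with 4 miRNAs, 1.38-fold with 2 miRNAs and 1.31-fold on day 7 than there. KCNMA1 was at least 2.18-fold lower on day 7 than on day 5. The miRNA arrays were low for KCNMA1 too, with log2 differences of −0.87 and −0.78 from the day 5 control. KCNJ15 stood at −1.21 for 4 miRNAs minus the day 7 control, at scaled signals of 86.2 and 242. The first was near the array median of 81.6, and 1 of its 5 probe sets was expressed.

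NHERF1, the PDZ scaffold of apical CFTR, was low on the 2-miRNA array alone: its scaled signal was 2688 with 4 miRNAs and 1128 with 2 miRNAs, against 2485 in the day 7 control and 2455 in the day 5 control. It has 1 probe set. STX3, an apical syntaxin, was lower on the miRNA arrays than on the day 5 control, with differences of −1.34 and −1.09, and of −0.87 and −0.73 on its second probe set, but the third gave 0.29 and 0.27. STX1A, a syntaxin that binds CFTR, was lower with 2 miRNAs than on the day 7 and day 5 controls, with differences of −1.40 and −1.05. With 4 miRNAs these were −0.90 and −0.55, and STX1A has 1 probe set. EZR (ezrin), which ties NHERF scaffolds to actin, gave 1.17 and 1.22 on its brightest probe set and between −0.54 and 0.12 on the other 4.

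In the signalling group of 20 expressed genes, PRKAR1A, a regulatory subunit of cAMP-dependent kinase, had the largest differences, 2.40 with 4 miRNAs and 2.53 with 2 miRNAs against the day 5 control. They rest on 1 of its 4 expressed probe sets, since the other 3 gave between −0.19 and 0.41. PRKG2, the cGMP-dependent kinase that phosphorylates CFTR, was above the array median on the day 5 control alone, at 296. It was at least 3.63-fold lower with 4 miRNAs, 3.39-fold lower with 2 miRNAs and 2.99-fold lower on day 7. PRKG2 passed the filter by its mean signal, which that 1 high value raised. Its differences from the day 5 control are therefore not independent of the filter. VIPR1, a receptor of vasoactive intestinal peptide, had 338 with 4 miRNAs, 220.2 with 2 miRNAs and 530.0 in the day 7 control, against 347 in the day 5 control. PTGER4, a prostaglandin receptor, was higher by 0.96 and 1.12 on the miRNA arrays than on the day 5 control. ADORA2B, the adenosine receptor that drives secretion in T84 layers, stayed within 0.28 of the day 5 control on every array. None of 8 expressed genes listed as regulators or relatives of SLC12A2, namely the kinases STK39, OXSR1, WNK1 and WNK4, the adaptor CAB39, the phosphatase PPP1CA and the cotransporters SLC12A4 and SLC12A7, was 2-fold apart in any comparison. Of 5 expressed sodium absorption genes only SCNN1G, a subunit of the epithelial sodium channel, passed 2-fold, and it was under the median of the 4-miRNA array and at least 1.37-fold lower there than on the day 5 control.

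**Figure D4:**
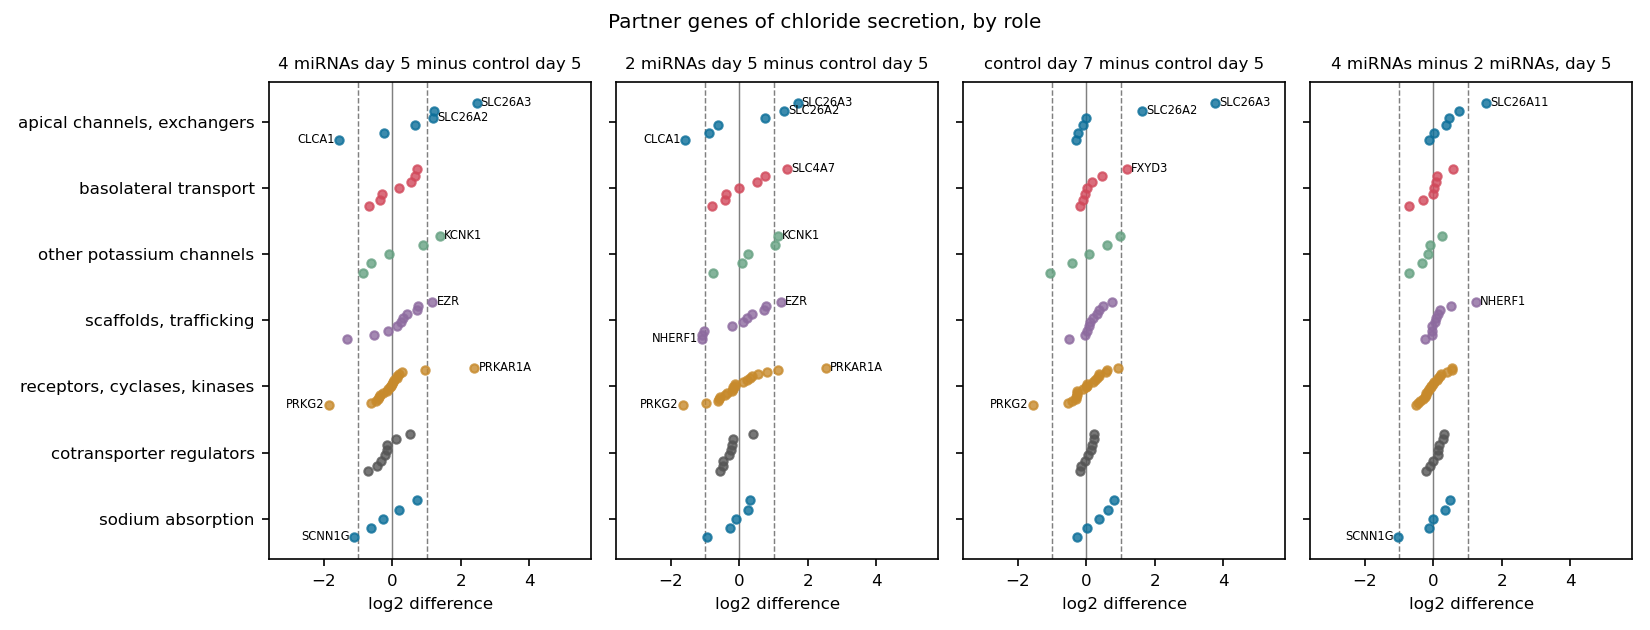
Log2 difference (scaled signal plus 32) of 61 expressed partner genes by role in 4 comparisons, each point being the brightest probe set of a gene; dashed lines mark 2-fold, names are given for some genes past it, and the height within a role only sorts the points. PRKAR1A (2.40 and 2.53) and SLC26A3 (2.46 and 1.70) stand furthest right on the miRNA arrays, SLC26A3 (3.76) on day 7.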

How the data were processed

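The deposited table holds 1 intensity per probe set on each of 4 arrays. They are MAS5 signals made by the authors, as the submitters' processing notes name that tool, and no source used here gives its version or a scaling target. Columns were matched to samples by accession and to groups by the labels. Scaling, the offset of 32, the filter and the naming of probe sets are given with the results. Symbols came from the platform annotation, updated by gene ID: 41097 probe sets had 1 symbol, 1801 several and 11777 none. Precision is limited by the number of arrays.

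No test was run, since no group has a replicate. The functions were tested on simulated arrays. The members and lists were chosen with earlier results of these data known. The text names all 9 members, up to 4 genes per partner role past 2-fold in any of the 6 comparisons, and NHERF1, SLC26A3, VIPR1 and ADORA2B always; an item of that rule is not reported here. Alternatives were quantile normalization, running-median centring (window of 1001 probe sets), 16 or 64 as offset, other filters and the median over probe sets. Python 3.11.15 with pandas 2.3.3 and numpy 2.4.6 was used.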

Additional observations from a re-analysis of the deposited data

How the results depend on the processing

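Of 300 differences of single genes under alternatives, 282 moved by less than the probe set SD of their comparison and 18 by more. Many could not move: the other filters kept each gene's brightest probe set, and KCNN4 and GUCY2C have 1 probe set. The 18 came from the median over probe sets, the other SLC12A2 probe set and, for ATP1B1 with 4 miRNAs against day 7, quantile normalization. The count is thus no measure of stability. The members' medians were near 0 and turned. For 4 miRNAs minus the day 5 control the median was 0.079 with running-median centring, 0.0061 with no filter, 0.20 with the median over probe sets and 0.40 with the other SLC12A2 probe set, a choice made after seeing the data. For 2 miRNAs these were 0.054 with centring, 0.35 with the median over probe sets and 0.21 with the other probe set. Against the day 7 control the 4-miRNA median was 0.19 with the median over probe sets and 0.070 with the other SLC12A2 probe set, and the 2-miRNA median 0.014 with the median over probe sets. For 4 miRNAs minus 2 it was 0.33 with no filter, which adds SLC26A6 and PDZK1. Of the members, 1 instead of 0 was at least 2-fold higher on each miRNA array than on the day 5 control with quantile normalization, centring or the median over probe sets (ATP1B1), or with the other SLC12A2 probe set (SLC12A2). With the other SLC12A2 probe set 1 was also higher on each miRNA array than on the day 7 control, and 1 with 4 miRNAs with no filter or the median over probe sets. With 4 miRNAs against 2, 1 was higher with no filter and with the median over probe sets. With the median over probe sets 1 was lower with 2 miRNAs than on day 5 and 1 on day 7 than on day 5. With no filter 1 was lower on day 7 than on day 5 (PDZK1) and 1 with 2 miRNAs than on day 7 (SLC26A6). The members higher with no filter were PDZK1 with 4 miRNAs against day 7 and SLC26A6 with 4 miRNAs against 2. All of these calls rest on signals near or under the array median. Both miRNA arrays were above both controls for 2 members with the median over probe sets or the other SLC12A2 probe set, and below them for 1 with centring or the median over probe sets. The cause was not tested, save where fewer or other probe sets are the alternative itself. Running-median centring moved the median gene from −0.15 to −0.04 with 4 miRNAs and from −0.16 to −0.06 with 2 miRNAs, and the genes at least 2-fold higher and lower from 985 and 822 to 1147 and 575, from 995 and 781 to 1156 and 576, and with 4 miRNAs against 2 from 128 and 163 to 161 and 137. With no filter the genes at least 2-fold higher and lower were 1608 and 1977 with 4 miRNAs and 1611 and 1983 with 2 miRNAs against the day 5 control, 1485 and 1331 on day 7 (411 and 296 with the filter), and 701 and 705 with 4 miRNAs against 2. A filter at the 70th percentile left 734 and 408, 733 and 391, 148 and 43, and 15 and 23 in the same order, and 64 as offset left 303 and 196 on day 7 and 63 and 88 with 4 miRNAs against 2. No paired analysis was possible because each group has 1 array. No replicate could be left out. Signal near the array median limits SLC26A6, PDZK1 and the dimmer KCNQ1 probe set.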

Other observations

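For each expressed member, the genes with the most similar pattern over the 4 arrays were taken by the Euclidean distance between log2 profiles, each centred on its mean. With 12264 genes and only 4 arrays, these are descriptions. Nearest to CFTR was CDC42SE2, an effector of the small GTPase CDC42, at a distance of 0.01 (scaled signal 6653 and 8215 on the 4-miRNA and 2-miRNA arrays, against 9296 and 8410 on the day 7 and day 5 controls). KCNE3 was matched by MGAT4A, a glycosyltransferase, at 0.02, and PYCARD, an inflammasome adaptor, at 0.03. ATP1B1 lay closest to INSIG2, a regulator of sterol synthesis, at 0.05 (1274, 1219 and 1141, against 681 on the day 5 control). KCNN4 was closest to SCARB1, a lipoprotein receptor, at 0.03, KCNQ1 to EME2 at 0.05, and GUCY2C to the antisense RNA gene SMIM2-AS1 at 0.02. For the transcript probe set of SLC12A2 the nearest were the readthrough locus DTX2P1-UPK3BP1-PMS2P11 at 0.03 and CIBAR1 at 0.06.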
